A study of Homo sapiens with 17 samples.

Results

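Mutations in a set of otherwise unrelated genes cause amyotrophic lateral sclerosis (ALS), a loss of motor neurons, or frontotemporal dementia (FTD). The genes described here are 10 of them: VCP, TBK1, SQSTM1, OPTN, UBQLN2, C9orf72, ATXN2, MATR3, SOD1 and PFN1. They were looked up by name in a count table of 23368 genes, and all 10 had a row in it. The protein that ties them to the experiment is TDP43, encoded by TARDBP, an RNA-binding protein that leaves the nucleus and aggregates in the neurons of most patients with ALS.

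Their mRNAs were measured by acRIP-seq in HEK293T, a transformed human embryonic kidney cell line. In this assay poly(A) RNA is incubated with an antibody against N4-acetylcytidine (ac4C), an acetylated cytidine that the enzyme NAT10 writes, and the RNA pulled down (IP) is sequenced beside the starting RNA (input) and a pull-down with control immunoglobulin (IgG). The study asked whether TDP43 takes part in placing ac4C on mRNA. Its 17 libraries fell into 6 groups: WT cells as input (n = 3), IP (n = 3) and IgG (n = 2), and cells given siRNA against TARDBP (siTDP43) as input, IP and IgG (n = 3 each). The labels call the control cells WT and name no control siRNA for them, so the RNA interference itself and the loss of TDP43 cannot be told apart, and neither can any batch that ran with the genotype. The study reports independent samples for most experiments but does not say whether these replicates were separate cultures. The p-values therefore measure the spread between these libraries.

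Levels are given as CPM, counts relative to the TMM-scaled library size, and levels of different genes were compared only as RPKM, which is CPM per kilobase of exon. The total count per library was 24542434 to 36583436 in the inputs, 8610070 to 21066215 in the IPs and 9022250 to 9466855 in WT IgG, but 3013989 to 3436811 in siTDP43 IgG, where 3 counts, used here as the floor, stood for 1.07 to 1.21 CPM. TARDBP itself fell in siTDP43 input, from 149.7, 157 and 151 CPM in the 3 WT inputs to 98.6, 102 and 106 CPM in the 3 siTDP43 inputs, a log2 change of -0.57 ± 0.045 (SE, edgeR quasi-likelihood test, adjusted p = 6.55e-13), which left 67.2% of the WT level. A list of 6 genes typical of HEK293T cells summed to 1218 to 1251 CPM in the WT inputs and to 591 to 635 CPM in the siTDP43 inputs, with all but PAX2 at 1 CPM or more in each, and 8 markers of other cell types summed to 3.77 to 5.50 and to 1.49 to 2.18 CPM, of which 4 and 3 had no count. Among the former, KRT8 (log2 change -2.30 ± 0.053) and VIM (-1.58 ± 0.038) fell and NEFL (1.52 ± 0.046) rose. The part of this difference between the genotypes in the results was not tested.

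As background, 6 of the 10 proteins serve the disposal of damaged proteins and organelles. VCP is an ATPase that pulls ubiquitylated proteins out of complexes and membranes. SQSTM1 (p62) and OPTN are autophagy receptors that tie ubiquitylated cargo to the growing autophagosome, TBK1 is the kinase that phosphorylates them and that also switches on the interferon response through IRF3, UBQLN2 carries ubiquitylated proteins to the proteasome, and C9orf72 acts with SMCR8 and WDR41 on autophagy and lysosomes. ATXN2 and MATR3 bind RNA, PFN1 delivers actin monomers to growing filaments, and SOD1 removes superoxide. TDP43 binds RNA rich in UG repeats and is best known in neurons for keeping cryptic exons out of mRNA.

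The UG hexamer UGUGUG was therefore looked up, as TGTGTG on the transcribed strand, in the exons of each gene (hg19, as positioned in the count table). It occurred in 8 of the 10 genes and in 57.8% of the 23093 genes with exon sequence, and it was absent from UBQLN2 and ATXN2. The genes differ in exon length, from 807 bases for PFN1 to 5989 for MATR3, and among genes within 20% of the same length the share with a match ran from 28.8% for PFN1 to 87.6% for MATR3. SQSTM1 held the most matches, 6, of which 5 overlap in 1 run of alternating T and G in an untranslated part near its 3′ end. Among the genes with a match, MATR3 fell in the input comparison given below, OPTN was not called and the others rose. Without a match, UBQLN2 rose and ATXN2 fell. Matches in 4 of the genes that rose are shown with 9 bases on either side, from the reference genome. The match is in capitals, and bases outside it, even where the repeat goes on, are in lower case.

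VCP, untranslated, chr9:35056806-35056829, minus strand: caggggaccTGTGTGgggtgtgaa
TBK1, coding, chr12:64879711-64879734, plus strand: aacaggggtTGTGTGttatgcctg
SQSTM1, untranslated, chr5:179263759-179263782, plus strand: gagggtcccTGTGTGtgtgtgtgc
C9orf72, coding, chr9:27566716-27566739, minus strand: ttcatagagTGTGTGttgatagat

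A second motif, UCCCAGCU, the sequence that the study derived from its ac4C peaks, was searched in the same way. It was found in the exons of none of the 10 genes on the transcribed strand and in 16.7% of all genes, or in 4.01% to 30.0% of genes of like length. A match is a run of letters and not a measured binding or acetylation site, and the absence of one says only that these letters are not in these exons.

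The first comparison was between the inputs, and asked whether the mRNA levels of the 10 genes changed when TDP43 was reduced. All of them passed the filter on low counts, and 9 of 10 passed the threshold of an adjusted p under 0.05: 7 rose, where 38.6% of the 14036 genes tested did, and 2 fell, where 40.6% did. So many genes were called either way that a call in itself set the group little apart. The median log2 change of the 10 was 0.45, and that of all genes tested was -0.05.

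VCP (chr9:35056065-35072739, minus strand) changed more than the other 9 genes. Its level was 139.6, 134 and 134 CPM in the 3 WT inputs and 573, 552 and 536 CPM in the 3 siTDP43 inputs. Every siTDP43 library thus lay far above every WT library, and the rise was 4.09-fold (log2 change 2.03 ± 0.041, adjusted p = 8.27e-28). Over all alternatives the log2 change stayed between 1.94 and 2.14. On the scale of RPKM, VCP moved from below SQSTM1 in WT input (35.2 ± 0.805 against 37.7 ± 0.514, SD, n = 3) to well above it in siTDP43 input (143 ± 4.80 against 54.5 ± 3.83).

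TBK1 (chr12:64845840-64895899, plus strand) followed. The kinase stood at 19.04, 19.8 and 22.2 CPM in WT input and at 55.7, 52.4 and 52.8 CPM in siTDP43 input, a 2.65-fold rise (log2 change 1.40 ± 0.071, adjusted p = 1.19e-17). In WT input it was the lowest of the 10 genes per length, at 6.59 ± 0.529 RPKM, and in siTDP43 input it stood sixth, at 17.4 ± 0.576 RPKM, above C9orf72, UBQLN2, OPTN and ATXN2.

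C9orf72 (chr9:27546543-27573864, minus strand) had 35.1, 34.4 and 41.4 CPM in WT input and 57.99, 58.8 and 62.3 CPM in siTDP43 input, and rose 1.62-fold (0.70 ± 0.067, adjusted p = 7.28e-11). The autophagy receptor SQSTM1 (chr5:179233388-179265077, plus strand) rose 1.45-fold, from 125, 128 and 125 to 196, 179 and 171 CPM (0.54 ± 0.047, adjusted p = 7.37e-12). It shares 620 exon bases with C5orf45 and 105 with MGAT4B on the opposite strand, and since the counting is not stated to have used strand, reads there cannot be assigned with certainty. OPTN (chr10:13142082-13180276, plus strand), the other receptor, had 29.4, 31.2 and 32.5 CPM in WT input and 34.8, 32.9 and 33.9 CPM in siTDP43 input. The ranges lay side by side without overlapping, but the log2 difference of 0.13 ± 0.070 did not pass the threshold (adjusted p = 0.0872) and came to 0.00 when the trend of counts with GC content was removed. UBQLN2 (chrX:56590026-56593443, plus strand), a gene of 1 exon, rose 1.21-fold, from 26.7, 28.1 and 27.02 to 33.9, 29.5 and 35.1 CPM (0.27 ± 0.075, adjusted p = 0.00151), but its call was lost in a fit of all 17 libraries (adjusted p = 0.0679).

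Both RNA-binding members fell, as TARDBP did. ATXN2 (chr12:111890018-112037480, minus strand) dropped from 34.5, 35.7 and 34.3 CPM to 25.7, 22.2 and 22.9 CPM, a log2 change of -0.56 ± 0.075 (adjusted p = 7.15e-08). MATR3 (chr5:138609441-138667366, plus strand) dropped from 273, 274 and 285 to 225, 233 and 236 CPM, a log2 change of -0.26 ± 0.040 (adjusted p = 8.99e-07), and with the GC trend removed of -0.47. It shares 601 of its 5989 exon bases with SNHG4 on the same strand.

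The 2 most abundant members also rose. PFN1 (chr17:4848947-4851825, minus strand) went from 739.9, 755 and 726 CPM to 1214, 1137 and 1185 CPM (1.60-fold, 0.68 ± 0.036, adjusted p = 3.73e-17), and SOD1 (chr21:33031935-33041243, plus strand) from 762, 772 and 760.4 CPM to 964, 955 and 1020.5 CPM (1.29-fold, 0.36 ± 0.036, adjusted p = 1.13e-10). With the GC trend removed, the log2 changes of PFN1 and SQSTM1, the members with the most GC (58.2% and 59.0%), were larger, 1.10 and 1.01. Over all alternatives the log2 change lay between 1.17 and 1.47 for TBK1, 0.48 and 0.79 for C9orf72, and 0.23 and 0.38 for SOD1. All 3 kept their calls throughout. By name, GENCODE lists 11 pseudogenes of PFN1, 3 each of SOD1 and MATR3 and 1 of SQSTM1. Their sequences were not compared with those of the genes, whose counts, made from unique alignments, are thus uncertain. In a bulk library more RNA per cell and more cells that hold the RNA cannot be told apart.

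**Figure D1:**
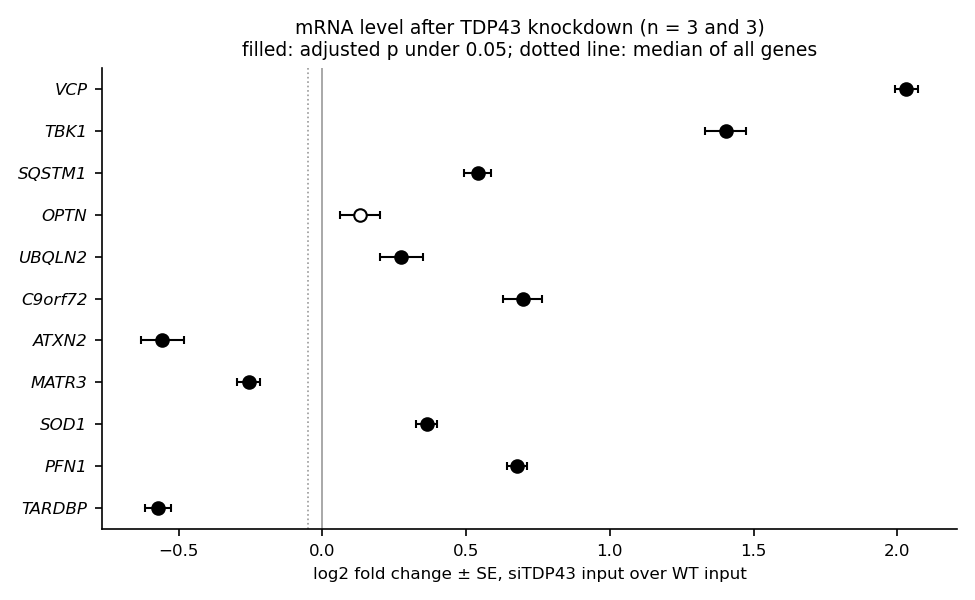
Log2 fold change of each gene in siTDP43 input over WT input (x axis, n = 3 and 3, bars are SE), with filled points for an adjusted p under 0.05. VCP (2.03) and TBK1 (1.40) lie to the right of the other 8 genes, ATXN2 and MATR3 to the left of zero beside TARDBP, and OPTN is open.

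Compared per length, the 10 genes fell into abundant and scarce mRNAs. In WT input PFN1 (917 ± 17.8 RPKM) and SOD1 (793 ± 6.22 RPKM) came first, then MATR3 (46.3 ± 1.11), SQSTM1 and VCP, and the other 5 lay between 6.59 and 8.63 RPKM. Of these 5, OPTN overlapped with C9orf72 and C9orf72 with UBQLN2 among the libraries, so their order is not settled. In siTDP43 input the first 2 kept their places, VCP came next at 143 ± 4.80 RPKM, UBQLN2 and OPTN overlapped, and ATXN2 was last at 5.01 ± 0.394 RPKM.

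The next question was whether any of the 10 mRNAs was enriched by the ac4C antibody. An mRNA was taken here as ac4C(+) when IP exceeded both input and IgG by more than 2-fold in the edgeR fits, each with an adjusted p under 0.05, so that the set need not be the one the study defined from its own ratios and tests. In WT cells none of the 10 met it, where 15.6% of all genes tested did, and in siTDP43 cells none did, where 10.3% did. The highest log2 ratio of IP to input was 0.88 in WT (PFN1) and 0.69 in siTDP43 (SOD1), under 2-fold, so the count was 0 at an unadjusted p under 0.05 as well, and it was also 0 with DESeq2's Wald test and under each of the other alternatives.

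In WT cells no member passed as higher in IP than in input, where 30.2% of all genes did, and 4 passed as lower, where 27.3% did. The kinase TBK1 was lowest relative to input, at 2.73, 2.45 and 2.48 CPM in the 3 IPs against 20.3 ± 1.63 CPM (SD, n = 3) in input, a log2 ratio of -2.98 ± 0.19 (adjusted p = 3.55e-13). C9orf72 was close to it, with 6.07, 4.32 and 3.99 CPM in IP against 36.96 ± 3.87 in input (-2.93 ± 0.14, adjusted p = 1.55e-15). These are the genes with the lowest GC content of the 10 (37.9% and 36.9%), and with the GC trend removed their log2 ratios were -2.22 and -2.09. SOD1 had 262, 279.8 and 285 CPM in IP (-1.47 ± 0.048, adjusted p = 7.66e-19), and MATR3 119, 131 and 132 CPM (-1.11 ± 0.053, adjusted p = 1.41e-15). MATR3 no longer passed with the GC trend removed (-0.61), whereas SQSTM1 then did (-1.34). The remaining log2 ratios of IP to input, none of which passed both thresholds, were 0.88 ± 0.059 for PFN1, 0.82 ± 0.080 for OPTN, 0.48 ± 0.081 for ATXN2, -0.10 ± 0.11 for UBQLN2, -0.11 ± 0.065 for VCP and -0.71 ± 0.067 for SQSTM1. OPTN passed with the GC trend removed (1.10).

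Set against the control pull-down, WT IP passed as higher for 2 members, where 35.2% of all genes did, and as lower for 1, where 17.8% did. The shuttle protein gene UBQLN2 was the clearer of the former, at 25.2, 25.7 and 25.2 CPM in IP and 2.13 and 0.823 CPM in the 2 IgG libraries. IP thus recovered UBQLN2 at about its input level while IgG did not, a 16.7-fold difference (log2 ratio 4.06 ± 0.22, adjusted p = 5.56e-14, and 4.92 without WT IgG replicate 1). TBK1 was the second, at 66, 60 and 56 counts in IP and 8 and 0 counts in IgG (2.64 ± 0.50, adjusted p = 3.96e-05). Its value rested on the 8 counts of WT IgG replicate 1, and was 1.70 without replicate 2 and 9.08, a fitted value against no count, without replicate 1. The RNA-binding MATR3 was lower in IP than in IgG, with 351 and 331 CPM in IgG (-1.44 ± 0.059, adjusted p = 3.3e-16). IP and IgG overlapped for VCP, SQSTM1 and ATXN2.

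The control pull-down itself did not mirror the input. In WT IgG 2 members passed as higher than input, where 24.4% of all genes did, and 4 as lower, where 36.6% did. PFN1 (1441 and 1809.9 CPM, log2 ratio 1.16 ± 0.065) and OPTN (64.00 and 77.2 CPM, 1.21 ± 0.093) were higher, and SOD1 (-1.30 ± 0.055), C9orf72 (-2.40 ± 0.18), UBQLN2 (-4.16 ± 0.22) and TBK1 (-5.63 ± 0.37) were lower (adjusted p between 2.42e-16 for SOD1 and 1.83e-11 for OPTN). With the GC trend removed, 1 member passed as higher and 5 as lower. PFN1 was just under the 2-fold threshold without WT IgG replicate 2 (0.98), while SQSTM1, at -0.86 ± 0.082, passed it without WT IgG replicate 1 (-1.05). Without replicate 1 the ratio of UBQLN2 was -5.02, and that of TBK1 was -4.69 without replicate 2 and -12.07, against no count, without replicate 1. Of the 10 genes, PFN1, OPTN and ATXN2 had higher mean levels in both pull-downs than in input, and SOD1, C9orf72, TBK1, SQSTM1, UBQLN2 and VCP had lower mean levels in both, VCP with overlap of IgG and input.

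**Figure D2:**
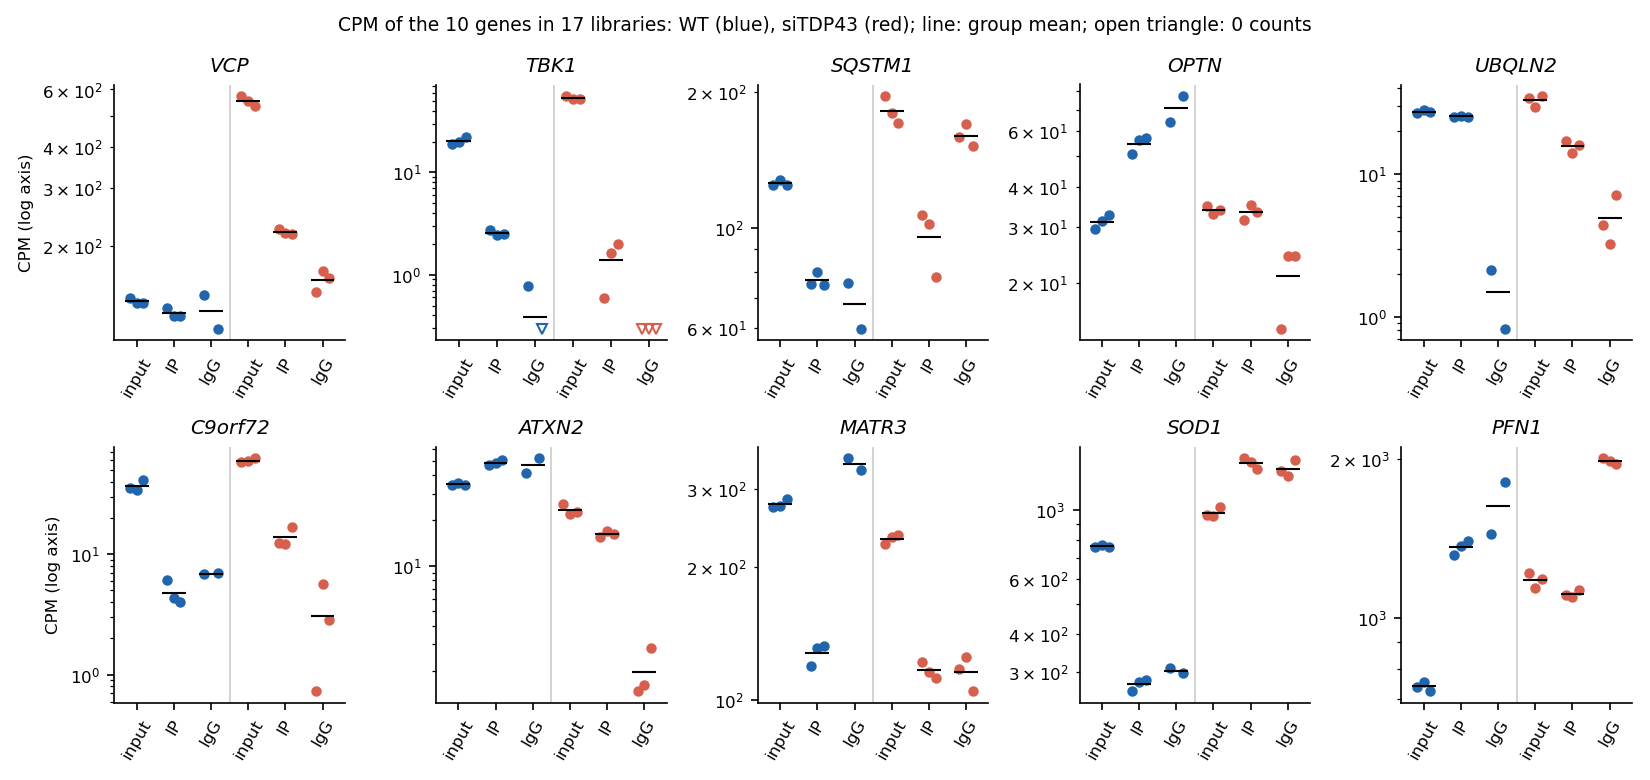
CPM (log axis, scaled for each gene) of the 10 genes in the 17 libraries, as points for single libraries and lines for group means, WT in blue and siTDP43 in red, with open triangles for libraries with 0 counts. VCP is highest in the 3 siTDP43 inputs, SOD1 moves in IP and IgG alike, ATXN2 drops in siTDP43 IgG, and TBK1 has no count in siTDP43 IgG.

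In siTDP43 cells too no member passed as higher in IP than in input, where 26.8% of all genes did, and 3 passed as lower, where 25.4% did. TBK1 had 8, 16 and 16 counts in the 3 IPs, or 0.594, 1.62 and 1.99 CPM, against 53.6 ± 1.78 CPM in input, a log2 ratio of -5.21 ± 0.25 (adjusted p = 1.64e-13). VCP stood at 225, 219 and 217 CPM, above its WT IP level but below its raised input (-1.17 ± 0.065, adjusted p = 2.73e-13), and C9orf72 at 12.5, 12.3 and 16.9 CPM (-1.96 ± 0.18, adjusted p = 1.24e-09). Under total count scaling MATR3 (-1.17), UBQLN2 (-1.26) and SQSTM1 (-1.11) passed as well. SOD1 was the member with the highest IP relative to input, at 1467, 1426 and 1353 CPM and a log2 ratio of 0.69 ± 0.055 that missed 2-fold.

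Against IgG, 4 members passed as higher in siTDP43 IP, where 34.0% of all genes did, and none as lower, where 15.0% did. ATXN2 had 15.5, 17.01 and 16.2 CPM in IP and 1.47, 1.62 and 2.85 CPM in IgG (2.94 ± 0.32, adjusted p = 3.74e-08), and C9orf72 12.5, 12.3 and 16.9 CPM and 0.734, 5.66 and 2.85 CPM (2.12 ± 0.35, adjusted p = 1.26e-05). For neither gene did IP and IgG overlap, although the IgG levels are only 4, 4 and 8 counts for ATXN2 and 2, 14 and 8 for C9orf72, whose ratio was 2.85 without siTDP43 IgG replicate 2. UBQLN2 had 16.9, 13.98 and 15.9 CPM in IP and 4.41, 3.24 and 7.12 CPM in IgG (1.58 ± 0.27, adjusted p = 1.88e-05). TBK1 had no count in any siTDP43 IgG library, so that its IP was at least 1.24-fold higher than IgG, from the floor of 3 counts per library (adjusted p = 0.00373). It is among the 4 only through a fitted value against no count, since the bound is under 2-fold.

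In siTDP43 IgG no member passed as higher than input, where 24.7% of all genes did, and 5 passed as lower, where 41.0% did. These were C9orf72 (-4.08 ± 0.29, and -4.83 without siTDP43 IgG replicate 2), ATXN2 (-3.33 ± 0.30), UBQLN2 (-2.49 ± 0.25), VCP (-1.58 ± 0.071) and TBK1, which was at least 47.6-fold lower in IgG. PFN1 at 2004, 1985 and 1957 CPM missed 2-fold narrowly (0.98 ± 0.051), and SOD1 at 1339, 1289.8 and 1452 CPM had a ratio of 0.70 ± 0.056.

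**Figure D3:**
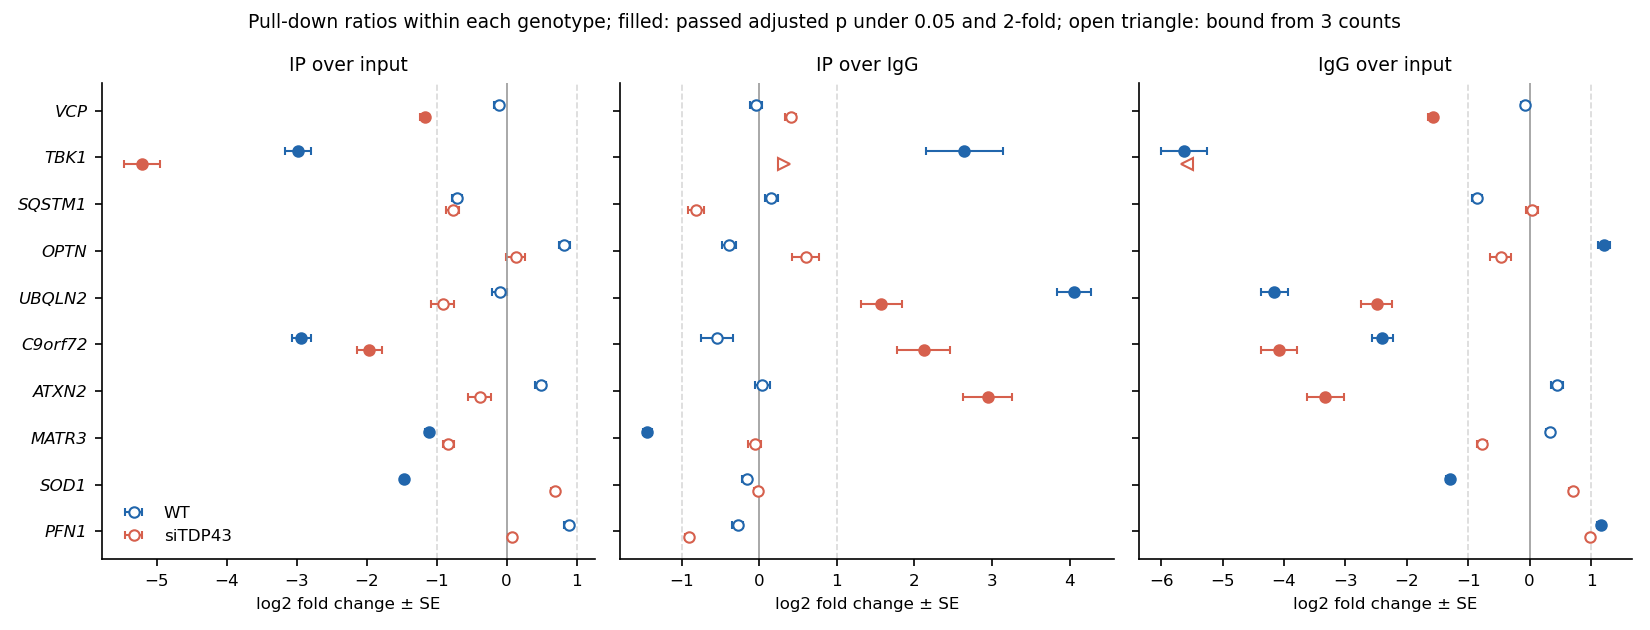
Log2 ratios of IP to input, IP to IgG and IgG to input for each gene (bars are SE) in WT (blue) and siTDP43 (red), filled where they passed an adjusted p under 0.05 and 2-fold (dashed lines), with open triangles for the bounds of TBK1 against IgG libraries without a count. No gene is filled on the right in both of the first 2 panels, and SOD1 changes side in the first and the third.

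Whether the pull-down ratio itself differed between the genotypes was tested as an interaction over all 17 libraries, where a positive value means a higher ratio in siTDP43. For IP over input, 2 members were higher, where 31.5% of the 15165 genes tested were, and 6 were lower, where 36.3% were. The antioxidant enzyme SOD1 had the largest of these differences among the called rises, 2.01 ± 0.077 (adjusted p = 4.15e-23): its IP was 275 ± 12.2 CPM (SD, n = 3) in WT, below input, and 1416 ± 57.6 CPM in siTDP43, above input. C9orf72 also rose, by 0.82 ± 0.23 (adjusted p = 0.00197), a call that was lost under total count scaling (adjusted p = 0.0512) and with the GC trend removed (adjusted p = 0.0876). TBK1 (-2.38 ± 0.36), VCP (-1.21 ± 0.097), ATXN2 (-1.02 ± 0.17), UBQLN2 (-0.96 ± 0.20), PFN1 (-0.96 ± 0.081) and OPTN (-0.84 ± 0.16) fell (adjusted p between 1.42e-13 for VCP and 5.61e-05 for UBQLN2). For VCP and TBK1 the input rose while the IP level did not rise in proportion: the IP of VCP went from 125 ± 4.29 to 221 ± 4.12 CPM and that of TBK1 from 2.55 ± 0.152 to 1.40 ± 0.724 CPM. SQSTM1 (-0.21 ± 0.12, adjusted p = 0.142) and MATR3 (0.13 ± 0.094, adjusted p = 0.213) did not pass. SQSTM1 passed as lower under DESeq2 size factors (-0.27), under total count scaling (-0.51) and without siTDP43 IP replicate 1 (-0.29). The median over the 10 was -0.90 and that of all genes -0.19.

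The same genes gave another picture against IgG, with 6 members higher, where 34.9% of all genes were, and 3 lower, where 25.9% were. ATXN2 (2.95 ± 0.33, adjusted p = 4.31e-10), C9orf72 (2.71 ± 0.41, adjusted p = 4.12e-07), MATR3 (1.44 ± 0.11), OPTN (1.04 ± 0.20) and VCP (0.51 ± 0.11) were higher by IP over IgG in siTDP43 than in WT. The value of C9orf72 was 1.75 with the GC trend removed and 3.44 without siTDP43 IgG replicate 2. UBQLN2 (-2.43 ± 0.43, and -3.29 without WT IgG replicate 1), SQSTM1 (-0.91 ± 0.14, and -0.30 with the GC trend removed) and PFN1 (-0.58 ± 0.087) were lower, PFN1 with its call lost when the GC trend was removed (-0.02). SOD1 was called higher at 0.20 ± 0.083 (adjusted p = 0.035), but lost the call without low-count filtering (adjusted p = 0.0702) and turned sign under DESeq2 size factors (-0.02) and with the GC trend removed (-0.04). It was also lost without any one of WT IP replicate 1 (adjusted p = 0.0945), WT IgG replicate 1 (0.142), siTDP43 IP replicates 1 (0.0557) and 2 (0.0572) and siTDP43 IgG replicates 1 (0.0696) and 2 (0.106). TBK1 has no usable value in this comparison, because its IgG was without a count in siTDP43 and at 8 and 0 counts in WT.

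By construction, the first reading less the second is the interaction of IgG over input. That interaction is therefore not an independent result, and is given with its own test. For IgG over input 3 members were higher in siTDP43 than in WT, where 27.0% of all genes were, and 7 were called lower, where 37.4% were. IgG and IP of SOD1 moved together: IgG rose by 1.80 ± 0.084 (adjusted p = 1.78e-20) over input beside the 2.01 ± 0.077 of IP, with 304 ± 8.38 CPM (SD, n = 2) in WT IgG and 1360.0 ± 82.9 CPM (n = 3) in siTDP43 IgG. SQSTM1 (0.70 ± 0.14) and UBQLN2 (1.46 ± 0.42, adjusted p = 0.0025) were the other 2, and UBQLN2 was not called without WT IgG replicate 2 (0.96, adjusted p = 0.0552) and was 2.33 without WT IgG replicate 1. ATXN2 had the largest drop among the members with counts in all groups, a difference of -3.97 ± 0.30 (adjusted p = 2.23e-14), from 41.2 and 51.8 CPM in the 2 WT IgG libraries to 1.47, 1.62 and 2.85 CPM in siTDP43 IgG. C9orf72 (-1.89 ± 0.40, and -2.62 without siTDP43 IgG replicate 2), OPTN (-1.88 ± 0.19), VCP (-1.71 ± 0.11), MATR3 (-1.30 ± 0.10) and PFN1 (-0.38 ± 0.086) were lower as well. TBK1 was called lower, but no direction can be given for it: on CPM its log2 ratio of IgG to input was -5.71 in WT and at most -5.57 in siTDP43, where the floor sets the limit, and its call was lost without WT IgG replicate 1 (adjusted p = 0.9998). The interactions share libraries, so they are given side by side and were not correlated. The part of the shallow siTDP43 IgG libraries in these differences was not tested.

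The levels of each gene over the 6 groups can be put in order of their means, and not every step in that order exceeded the spread. For VCP, WT IgG overlapped with WT input and with WT IP, which did not overlap each other, and all 3 lay below the siTDP43 groups. For MATR3, WT IP, siTDP43 IP and siTDP43 IgG overlapped, at 127 ± 7.12, 116 ± 5.01 and 115 ± 10.1 CPM, below both inputs and WT IgG. For SOD1, siTDP43 IP and IgG overlapped above both inputs, and WT IP was lowest. For OPTN, siTDP43 IP overlapped with siTDP43 input and with WT input, and the inputs did not overlap each other. PFN1 and UBQLN2 had no overlap between neighbours, the former running from 740.2 ± 14.4 CPM in WT input to 1982 ± 23.8 CPM in siTDP43 IgG, the latter from 32.8 ± 2.99 CPM in siTDP43 input to 1.48 ± 0.926 CPM in WT IgG.

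The wider pathways were followed through 5 lists of related genes. Of all genes tested in the inputs, 38.6% rose and 40.6% fell, the shares to set beside the counts of each list. Of 30 other ALS and FTD genes 29 were tested in the inputs, and 15 rose and 12 fell, with a median log2 change of 0.15. Here and below, the genes named for a list are those with the largest changes among its called members with at least 100 counts on average. SPG11, a lysosomal protein, rose most (1.80 ± 0.13, adjusted p = 7.48e-14), followed by EWSR1 (1.27 ± 0.037), an RNA-binding protein. The mitochondrial CHCHD10 (-3.18 ± 0.091, adjusted p = 5.08e-24; 85.97 CPM in WT input and 9.34 CPM in siTDP43 input) and ANXA11 (-1.97 ± 0.060), which tethers RNA granules to lysosomes, fell most.

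Of 15 partners of TBK1, the receptors and C9orf72 in selective autophagy, 14 were tested, and 7 rose and 4 fell (median 0.10). KEAP1, the SQSTM1-bound sensor of oxidative stress, rose by 1.43 ± 0.056 (adjusted p = 1.5e-20) and SMCR8, which binds C9orf72, by 1.31 ± 0.17. GABARAPL1 (-1.17 ± 0.049) and GABARAP (-0.72 ± 0.039), to which receptors bind on the autophagosome, fell. Of 16 cofactors of VCP and ubiquilins 10 rose and 4 fell (median 0.34). The VCP cofactors UBXN7 (1.44 ± 0.077, adjusted p = 4.1e-17) and VCPIP1 (1.27 ± 0.15) rose most, and FAF1 (-1.52 ± 0.075) and UBXN6 (-1.12 ± 0.11) fell most. Of 13 paralogs and partners of the other members 10 rose and 2 fell (median 0.38), the former led by ACTB (1.29 ± 0.038), the actin that profilin binds, and PFN2 (1.11 ± 0.039), the paralog of PFN1. Those that fell were ATXN2L (-2.84 ± 0.068, adjusted p = 5.56e-26) and PABPC1 (-1.10 ± 0.036), the paralog and a binding partner of ATXN2.

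The last list held 13 genes that the TBK1 and IRF3 pathway induces, and here the direction was the opposite of that of TBK1 itself. All 11 that were tested fell in siTDP43 input and none rose, where 40.6% of all genes tested fell. The list was chosen with earlier results of these data known, so this count is a description and not a test. The chemokine genes CCL5 and CXCL10 had 181 and 48.9 CPM in WT input and no count in siTDP43 input, so they were at least 1694-fold and at least 459-fold lower. With the 4 tested genes without a count in siTDP43 input at their bound, the median log2 change was -6.18.

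**Figure D4:**
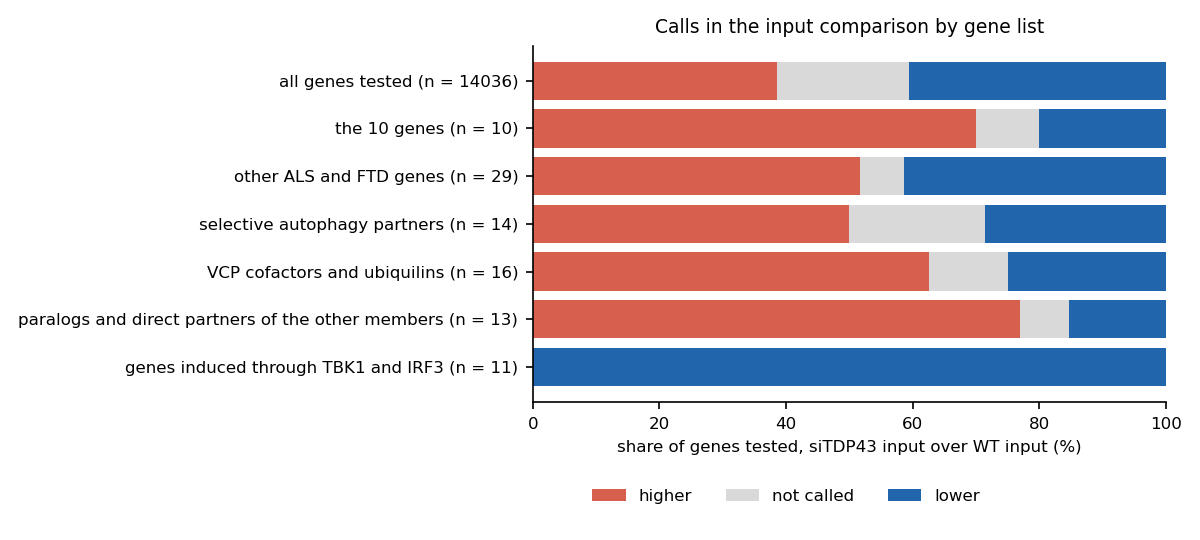
Share of the genes tested that were called higher, lower or neither in siTDP43 input over WT input (x axis, %), for all 14036 genes, the 10 genes and 5 related lists. All 11 genes induced through TBK1 and IRF3 were lower, whereas in the 10 genes 7 were higher and 2 lower. The lists were chosen with earlier results of these data known.

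In the pull-downs some genes of the lists met the ac4C(+) rule, which 15.6% of all genes tested met in WT and 10.3% in siTDP43. In WT cells CHCHD10, KIF5A and TAF15, from the list of other ALS and FTD genes, were ac4C(+). KIF5A stood at 5.13 CPM in WT IP, with at most 6 counts in a WT IgG library. Of the other lists, SMCR8 and TBKBP1, which binds TBK1, SFPQ, a nuclear RNA-binding protein, and MX1, at 2.01 CPM in IP, met the rule, SMCR8 and MX1 with no count in WT IgG, and no cofactor of VCP did. In siTDP43 only C21orf2 of the other ALS and FTD genes and ASPSCR1 of the VCP cofactors met it.

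By the interaction of IP over input, 6 of the 29 tested ALS and FTD genes were higher in siTDP43 and 11 lower, led by the tubulin TUBA4A (3.38 ± 0.25) and the lysosomal TMEM106B (3.10 ± 0.17) on one side and by TAF15 (-2.60 ± 0.17) and EWSR1 (-2.29 ± 0.078) on the other. The autophagy partners split 6 to 4, with TANK (1.82 ± 0.20) and TBKBP1 (-3.00 ± 0.35), both adaptors of TBK1, at opposite ends. The VCP cofactors split 5 to 6, from ASPSCR1 (1.08 ± 0.20) to UBQLN4 (-1.87 ± 0.18), the partners of the other members 3 to 6, from CAT (1.97 ± 0.21), which breaks down the peroxide that SOD1 makes, to LSM12 (-1.42 ± 0.17), and the genes induced through TBK1 1 to 3. By IP over IgG the counts of higher and lower were 13 and 12, 6 and 3, 11 and 3, 6 and 3, and 4 and 1, in the same order of lists. For the genes induced through TBK1, calls in both interactions include groups almost without counts. IFIT1 and IFIT2, called higher by IP over IgG, had no count in siTDP43 IgG. CCL5, called lower by it, had at most 1 count in a siTDP43 IP library. IFIT3, called lower by IP over input, had at most 2 there. These genes thus have no usable ratio. Of all genes tested, 31.5% were higher and 36.3% lower by IP over input, and 34.9% and 25.9% by IP over IgG. AZI2 (5.22 ± 0.33), another adaptor of TBK1, had the largest rise by IP over IgG among the called genes of its list with at least 100 counts on average. Its IP was 14.9 ± 0.785 CPM in WT and 15.8 ± 0.941 CPM in siTDP43. Its IgG went from 70.7 ± 5.72 to 1.94 ± 1.84 CPM, with at most 10 counts in a siTDP43 IgG library, so the ratio rests on values near the floor. UBXN7, called higher among the VCP cofactors, had at most 2 counts in a siTDP43 IgG library and thus no usable ratio, and UBQLN1 (-1.75 ± 0.18), the paralog of UBQLN2, fell, as UBQLN2 did. With DESeq2 size factors 5 of the VCP cofactors were higher by IP over IgG, in place of 11.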

How the data were processed

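Poly(A) RNA of HEK293T cells was sequenced in 17 libraries after SMART-seq2 amplification. Per the study's methods and the labels, the authors trimmed reads with Trim Galore 0.6.7, aligned them to hg19 with STAR 2.7.10a and counted unique alignments per gene with featureCounts 2.0.2. The labels name a mouse build, but the gene positions in the deposited table are those of hg19. The deposited table gives unnormalized read counts for each gene. Which annotation release was used, and how strand and read pairs were treated, is not given in the sources used here. Between 81.3% and 95.9% of counts from 1 to 20 were even, so mates may have been counted singly. Intervals, floors and tests do not cover duplicated molecules, since no molecular identifiers were used.

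Groups and replicate numbers came from the sample titles and descriptions. Replicates were compared first, and none duplicated another (chi-square per degree of freedom 3.26 to 9.43). Same-numbered libraries did not deviate together (r of residuals -0.02 to 0.03), so the numbers were not used as pairs. All tests ran in edgeR 4.0.16 under R 4.3.3 (quasi-likelihood F test, two-sided, TMM, filterByExpr with a minimum count of 10) and Benjamini-Hochberg adjustment over all genes tested: the inputs in 6 libraries, each genotype in 8 or 9, the interactions in 17. A call needed an adjusted p under 0.05 and, within a genotype, a fold change above 2. The alternatives included the Wald test of DESeq2 1.42.0 and size factors by the method of DESeq2, computed in edgeR (called DESeq2 size factors here). The others were no low-count filter, scaling to total counts, a replicate block, counts halved, a GC trend removed, all 17 libraries in 1 fit, no fold condition and leaving out each library. Leaving out a WT IgG library leaves 1 library that is assumed to vary like the others. The tests were tried on simulated counts. Groups with at most 3 counts in every library were taken as at the floor, 3 counts per library.

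Exon sequence came from GRCh37, and exon parts from GENCODE; 23093 of 23368 genes had sequence of the length stated in the table. The 10 genes, the related lists and the markers were chosen with earlier results of these data known. Named besides the 10 genes were TARDBP and, of each list, up to 2 called genes with the largest rise and 2 with the largest fall in the inputs and the interactions of IP, with at least 100 counts on average; the ac4C(+) genes of the lists were named after their values were seen. Some items are not reported here. No use was made of the spiked-in control RNA, and ratios are therefore relative.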

Additional observations from a re-analysis of the deposited data

Results flagged for a closer look

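For 5 of the 10 genes, a pull-down ratio was above 1 in one genotype and below 1 in the other. Both ratios had an adjusted p under 0.05 (edgeR quasi-likelihood test), and so did the difference between the genotypes, tested as an interaction. The share of all genes that met this rule was not computed, so the count does not set the 10 genes apart. IP over input of SOD1 had a log2 ratio of -1.47 in WT and 0.69 in siTDP43, a difference of 2.01 (adjusted p = 4.15e-23), and IgG over input of SOD1 one of -1.30 and 0.70, a difference of 1.80 (adjusted p = 1.78e-20). ATXN2 ran the other way, with IP over input at 0.48 and -0.38 (difference -1.02, adjusted p = 1.38e-06) and IgG over input at 0.44 and -3.33 (difference -3.97, adjusted p = 2.23e-14). The adjusted p of ATXN2 in siTDP43 IP over input was 0.0382, and it was above 0.05 with the replicate block (0.0755) and without any one of siTDP43 input replicates 1 (0.161), 2 (0.0690) and 3 (0.0772) and siTDP43 IP replicates 1 (0.0983) and 3 (0.0587).

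OPTN had a ratio of IP over IgG of -0.39 in WT and 0.60 in siTDP43 (difference 1.04, adjusted p = 1.92e-05), beside IgG over input at 1.21 and -0.47 (difference -1.88, adjusted p = 5.95e-11). The siTDP43 value of the latter was not past 0.05 with the GC trend removed (-0.25, adjusted p = 0.180) or without siTDP43 IgG replicate 1 (-0.27, adjusted p = 0.140). For C9orf72, IP over IgG was -0.54 and 2.12 (difference 2.71, adjusted p = 4.12e-07), with 2, 14 and 8 counts in the siTDP43 IgG libraries. Its WT value turned to 0.013 with the GC trend removed (adjusted p = 0.967), and its adjusted p was above 0.05 under total count scaling (0.0782) and without any one of WT IP replicates 2 (0.0616) and 3 (0.0674) and WT IgG replicates 1 (0.0538) and 2 (0.0730). MATR3 had IgG over input at 0.33 and -0.78 (difference -1.30, adjusted p = 1.07e-13). Of these 8 differences, 4 are in IgG over input, a ratio in which the ac4C antibody takes no part.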

How the results depend on the processing

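The counts of members called stayed within 1.5 times in all 125 cases in which 1 library was left out and in 95 under the other alternatives, and moved further in 6. With no condition on the fold change, 8 members were called for IP over input and 7 for IP over IgG in WT, and 8, 8 and 9 for IP over input, IP over IgG and IgG over input in siTDP43; total count scaling gave 6 for IP over input in siTDP43. With the replicate number as a block in the fit, 9 members were called in the inputs, 8 for the interaction of IP over input and 9 for that of IP over IgG, as without it, and no call of a member or list changed.

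The following ratios changed direction under an alternative, and the cause was not tested. With the GC trend removed, IP over IgG in WT was 0.0051 for SOD1, -0.27 for SQSTM1, -0.14 for ATXN2 and 0.013 for C9orf72, and the interactions of IP over input were 0.037 for SQSTM1 and -0.057 for MATR3. Under total count scaling, UBQLN2 had IP over input of 0.0056 and VCP IP over IgG of 0.085 in WT, and MATR3 an interaction of IP over input of -0.16. In siTDP43, IP over input of OPTN was -0.21 under total count scaling and -0.028 in the fit of all 17 libraries. That of PFN1 was -0.0081 under DESeq2 size factors, -0.27 under total count scaling, -0.0085 with the Wald test, -0.32 with the GC trend removed and -0.086 with all 17 libraries. IP over IgG in siTDP43 was 0.19 and 0.058 for SOD1, and 0.15 and 0.016 for MATR3, under total count scaling and with all 17 libraries. IgG over input of SQSTM1 in siTDP43 was -0.015, -0.51, -0.015, -0.68 and -0.19 under size factors, total counts, Wald test, GC trend and all 17 libraries. The interaction of IP over IgG of SOD1 was -0.024, -0.024 and -0.043 under size factors, Wald test and GC trend.

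Leaving out each library in turn moved IP over IgG in WT from -0.20 to 0.14 for VCP and from -0.11 to 0.22 for ATXN2, IgG over input in WT from -0.25 to 0.080 for VCP, and the interaction of IP over IgG from -0.98 to 5.94 for TBK1. In siTDP43 it moved IP over IgG from -0.049 to 0.031 for SOD1 and from -0.13 to 0.0018 for MATR3, and IgG over input from -0.015 to 0.085 for SQSTM1. Of single genes, 766 values under the other alternatives kept their direction and their side of the threshold, 37 came to pass it, 7 no longer passed it and 28 turned. Total count scaling moved the median log2 ratio of all genes from -0.09 to -0.43 for IP over input and from -0.58 to -1.13 for IgG over input in siTDP43, and the share of calls that were higher from 51.3% to 39.0% and from 37.6% to 26.9%. In the related lists, the interaction of IP over IgG gave 5 in place of 11 VCP cofactors higher with DESeq2 size factors or its Wald test. It gave 6 in place of 3 partners of the other members lower with the same settings and 5 with no low-count filter. The Wald test gave 5 in place of 3 autophagy partners and 4 in place of 1 gene induced through TBK1 lower, and for IP over input 3 in place of 1 of the latter higher, and total count scaling 3 in place of 5 VCP cofactors higher. The depth of siTDP43 IgG limits TBK1, ATXN2, C9orf72 and UBQLN2, with at most 20 counts per library there.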

Other observations

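The gene of the lists whose log2 CPM ran most like that of a member over the 17 libraries, out of 103 compared, is given as a description, since the libraries share groups. SOD1 was most like CHMP2B (Pearson r = 0.97), a part of the machinery that closes membranes and itself mutated in FTD. VCP was most like KEAP1 (0.96), ATXN2 like the RNA sensor IFIH1 (0.96), C9orf72 like its partner WDR41 (0.93) and UBQLN2 like its paralog UBQLN1 (0.92). TBK1 was most like GRN (0.90), the progranulin gene, PFN1 like the VCP cofactor NPLOC4 (0.90), OPTN like the autophagy receptor TAX1BP1 (0.89) and MATR3 like the VCP cofactor NSFL1C (0.89).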
